A study of Mus musculus with 72 samples.

Results

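The ectopic Fzd1 line was compared with its control 1 day after doxycycline (DOX) was first given to turn the transgene off. The comparison took every library of olfactory epithelium labelled as given DOX from P0 to P1 (P, postnatal day), 3 ectopic (Omp-IRES-tTA;tetO-Fzd1-IRES-tdTomato) and 3 control (Omp-IRES-tTA), 6 of the 72 libraries of the series. Both groups therefore carried Omp-IRES-tTA and both received DOX, and they differed by label in tetO-Fzd1-IRES-tdTomato alone. The series follows an Fzd1 knockout and this ectopic line over the first postnatal weeks, with and without DOX. Its nearest other groups were the same 2 genotypes at P0 without DOX and at P3 with DOX, 3 libraries each. The titles of the 3 ectopic libraries at P3 carry 1 shared ID, and whether they come from separate animals is not given. Every library is total RNA depleted of ribosomal RNA.

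Fzd1 is a frizzled receptor for secreted Wnt proteins, which signal through beta-catenin or through the planar cell polarity pathway. In these mice the tetracycline-controlled activator tTA is made from the Omp gene, which mature olfactory sensory neurons express, and tTA switches on tetO-linked genes only while DOX is absent. Forced Fzd1 would thus be made in mature neurons before birth and fall after DOX, with a delay set by how fast DOX, tTA, the RNA and the receptor turn over. Each mature neuron expresses a single odorant receptor gene from a very large family, signals through a cyclic AMP cascade, and is replaced throughout life by dividing basal progenitors. The construct also makes tdTomato, no group carries a tetO construct without Fzd1, and the number of Omp-IRES-tTA copies per animal is not given in the sources used here. The labels do not say that the libraries come from separate animals, so each p-value speaks only to spread among libraries, which may be technical. For edgeR that spread was estimated over all 72 libraries of the series, not over these 6 alone. The labels give no batch either. The title numbers of the 2 groups form separate runs, so a batch and the genotype cannot be told apart.

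Gene counts per library ranged from 3.322 to 7.163 M, out of 12.26 to 18.76 M reads. Ectopic replicate 1 stood apart from the other 5 libraries. In it 62.2% of reads lay outside annotated genes, beside 42.52% to 48.99% in the others. Mitochondrially encoded genes took 0.378% of its gene counts (0.764% to 1.0% in the others) and cytosolic ribosomal protein genes 1.23% (2.22% to 2.66%). Its log2 expression correlated with the controls at 0.936 to 0.947 across genes, against 0.960 to 0.975 for the other ectopic libraries. Ectopic replicate 2 was low in the repeat-like Gm10800 gene family, at 0.480% of gene counts beside 2.69% to 6.16%. The results below are given with and without ectopic replicate 1 where they depend on it, and the part of its read make-up in them was not tested beyond that. Markers of mature neurons were plentiful in all 6 libraries (Gnal, the olfactory G protein subunit, lay at 181 to 351 CPM, counts relative to the library's total, scaled by TMM factors).

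Fzd1 (chr5:4753839-4758035, mm10) was the check of the shut-off. Its level was 54.3, 47.8 and 48.1 CPM in the control libraries and 54.5, 64.0 and 62.6 CPM in the ectopic ones. All 3 ectopic libraries were above the highest control, the nearest of them barely. The fitted difference was 0.27 on the log2 scale (SE 0.42) and did not pass the threshold (edgeR adjusted p = 0.759). An exact permutation test of log2(CPM + 1), 2-sided, gave a difference of 0.263 with p = 0.1, the smallest that 3 against 3 allows. In TPM, the deposited abundance scaled to a fixed total, Fzd1 was at 8.79, 7.67 and 8.28 in control and 14.59, 12.47 and 11.35 in ectopic libraries. Those values lay clearly apart, on a scale where the median over all genes was also above 0 (0.22 on log2(TPM + 1)). At P0 without DOX, with other libraries, control lay at 39.0, 38.2 and 44.3 CPM and ectopic at 337, 205 and 354 CPM, a difference of 2.88. The ectopic excess of Fzd1 at P1 was therefore smaller by 2.61 on the log2 scale (SE 0.59), and this difference between the 2 comparisons passed the threshold (adjusted p = 0.00626). The P1 and P0 comparisons differ in DOX, in 1 day of age and in their libraries, which cannot be told apart.

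**Figure D1:**
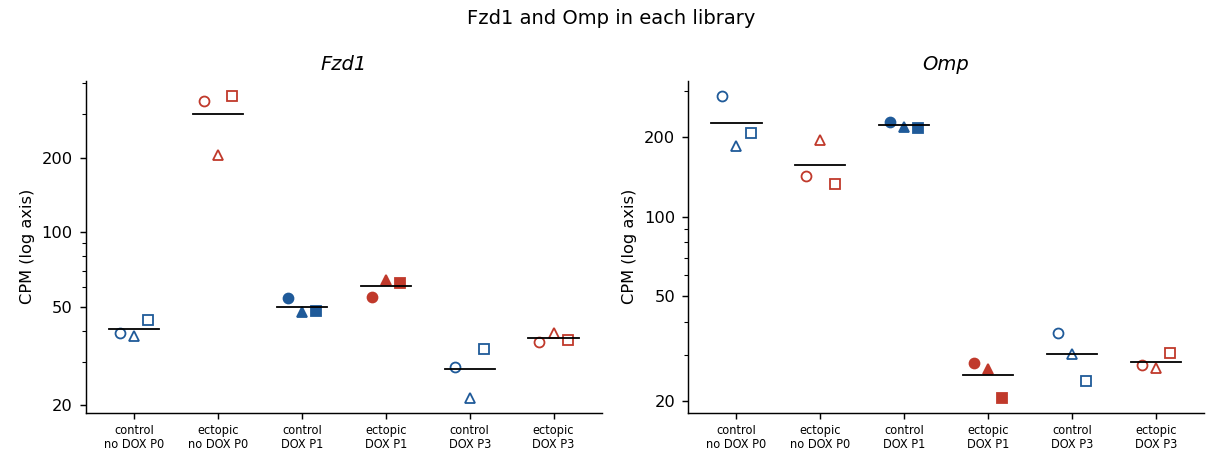
CPM of Fzd1 (left) and Omp (right) on a log axis in each library of the control (blue) and ectopic (red) groups at P0 without DOX, P1 with DOX (filled symbols) and P3 with DOX. Circles, triangles and squares are replicates 1, 2 and 3, and bars are means. Ectopic Fzd1 stands at 205 to 354 CPM at P0 and near the control level at P1, while Omp at P1 is near 220 CPM in control and 20.6 to 27.9 CPM in ectopic libraries.

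Omp (chr7:98143359-98145502, mm10), the olfactory marker protein gene into which tTA was placed, fell most clearly among marker genes. It was at 228, 220 and 218 CPM in control and at 27.9, 26.5 and 20.6 CPM in ectopic libraries, so the groups lay far apart. Omp was lower by 3.16 on the log2 scale (SE 0.37, adjusted p = 3.26e-08), and this held without ectopic replicate 1. At P0 it had been 287, 185 and 207 CPM in control and 143, 195 and 133 CPM in ectopic libraries, which overlapped, and the fall at P1 was larger by 2.63 (adjusted p = 0.00101). Over the whole series 36 of 72 libraries lay below 100 CPM of Omp, and they were not all ectopic. Control libraries with DOX at P3 (23.8 to 36.2 CPM) and without DOX at P3, P7 and P10 (27.8 to 61.1 CPM) were among them, while controls with DOX at P7 lay at 412 to 673 CPM. Whether the copy number of the modified Omp allele differs between these groups is not given in the labels and was not tested.

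Other genes of mature olfactory sensory neurons moved less. Of 19 markers, 4 fell (Omp, Stoml3, Slc17a6 and Cnga2), 1 rose and 14 did not pass. Among all genes tested, 6.11% were called lower and 8.71% higher. The median over the list was −0.20, beside 0.01 over all 22144 genes tested, and on the log2(TPM + 1) scale (TPM, the deposited transcript abundance scaled to a fixed total) it was 0.08, beside 0.22 over all genes. Stoml3, which encodes a stomatin-like protein of olfactory cilia, was at 174, 177 and 174 CPM in control and at 36.7, 91.2 and 97.8 CPM in ectopic libraries. All ectopic values were below all controls, and ectopic replicate 1 was by far the lowest. The difference was −1.21 (adjusted p = 0.00393), and it did not pass without ectopic replicate 1 (−0.89, adjusted p = 0.08). Slc17a6, the vesicular glutamate transporter VGLUT2, was lower by 0.81, and without that library by 0.65, which did not pass. Cnga2, a subunit of the cyclic nucleotide-gated channel, was lower by 0.77. Adcy3, the adenylyl cyclase of the odorant cascade, was at 89.1, 94.8 and 83.4 CPM in control and at 51.0, 92.7 and 86.9 CPM in ectopic libraries, which overlapped (−0.20, adjusted p = 0.697). Pde4a, a cyclic AMP phosphodiesterase, rose by 1.24 (adjusted p = 0.000813). Without ectopic replicate 1, Omp was the only marker of the 19 called lower and the list median was −0.16. The summed level of the 18 markers other than Omp was 1668 to 1812 CPM in control and 946, 1550 and 1482 CPM in the ectopic libraries. Fewer mature neurons and less of these RNAs per neuron cannot be told apart in such bulk samples.

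Some genes that mature neurons express with activity also fell. S100a5, a calcium-binding protein gene induced by odorant stimulation, was at 72.2, 61.3 and 59.1 CPM in control and at 2.76, 22.7 and 19.5 CPM in ectopic libraries (−2.02, SE 0.46, adjusted p = 0.00159). Kirrel2, an adhesion gene that sorts olfactory axons by activity, was at 44.3, 46.8 and 50.8 CPM against 11.6, 21.2 and 35.8 CPM (−1.01, adjusted p = 0.0245). Both genes were below every control in all 3 ectopic libraries, lowest in replicate 1, and without that library Kirrel2 did not pass (−0.74). Of the 10 genes of this list 2 fell and 1 rose, Homer2 by 0.58, where 14.8% of all genes tested were called.

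Odorant receptor genes were lower in the ectopic line 1 day into DOX. Of 1407 receptor genes counted, 978 passed the filter on low counts, and of these edgeR called 115 lower and none higher. Over all genes 14.8% were called, 8.71% higher and 6.11% lower. At an unadjusted p below 0.05 there were 246 receptors lower and 2 higher. The median over the 978 was −0.66 (quartiles −1.12 and −0.24), beside 0.01 over all genes, and 817 were fitted below 0. In 302 receptors every ectopic library lay below every control and in 8 above, where all genes gave 14.6% and 14.9%. DESeq2 called 107 lower and none higher, and 68 were lower without ectopic replicate 1, 47 (with 1 higher) without control replicate 1 and 58 without ectopic replicate 2. On log2(TPM + 1) 26 were lower and 5 higher, with a median of −0.06, where the median of all genes was 0.22. With only these 6 libraries in the fit, 312 of the 978 receptors passed the filter. Of these, 23 were lower and none higher (median −0.71). The rest of the 978 had too few counts in these 6 libraries to be tested there. Near-identical receptors can share or lose reads, so values of single receptors are uncertain.

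Together, odorant receptor genes took a share of gene counts of 0.221%, 0.192% and 0.213% in control and 0.179%, 0.116% and 0.142% in ectopic libraries. Every ectopic library lay below every control, with 95% Wilson intervals that did not overlap (the highest ectopic, 0.175% to 0.184%, the lowest control, 0.188% to 0.196%) and cover counting error only. The mean difference was −0.063 percentage points (exact permutation test, 2-sided, p = 0.1, the smallest possible). At P0 without DOX the shares were 0.145% ± 0.0365 (SD, n = 3) in control and 0.0577% ± 0.0111 (SD, n = 3) in the ectopic line. The share was thus higher at P1 than at P0 in both genotypes, and the ectopic share at P1, 0.146% ± 0.0317 (SD, n = 3), was near that of control at P0.

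Lower receptors were found in both classes. Class I receptors, the fish-like receptors clustered on chromosome 7, had 9 of 115 lower (median −0.51), near the 6.11% of all genes, and the median of the other 863 was −0.67. Medians over the 13 chromosomes with 10 or more tested receptors ran from −0.99 to −0.51. Olfr728 was at 7.29, 5.90 and 8.10 CPM in control and at 0.502, 1.63 and 2.57 CPM in ectopic libraries (−2.04, SE 0.36, adjusted p = 8.6e-05). Olfr15 was at 20.8, 17.9 and 23.1 CPM against 8.54, 8.91 and 8.31 CPM, with close ectopic values (−1.26, SE 0.23, adjusted p = 0.000117). Olfr281 (−1.67) and Olfr1364 (−1.91) followed, and among class I receptors Olfr661 (−1.63) and Olfr544 (−1.27), each with groups that did not overlap.

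The P0 comparison of the same genotypes, which shares no library with P1, called 118 receptors lower and none higher, with a median of −1.35. The 40 receptors lower at both ages were 33.9% of the 118 and 34.8% of the 115. The difference of the 2 comparisons had a median of 0.71 over receptors, and 6 receptors passed its test, all towards a smaller fall at P1. Olfr24 was among them: at P0 it was at 7.12 to 9.46 CPM in control and 1.18 to 2.46 CPM in ectopic libraries, and at P1 at 5.55, 3.87 and 3.34 against 5.02, 4.52 and 4.99 CPM. Its P1 groups overlapped (0.15, adjusted p = 0.796), and the difference from P0 was 2.40 (adjusted p = 3.57e-05). In 92.2% of the 115 receptors lower at P1, the ectopic P1 mean was nearer than the control one to the mean of both P0 groups. It was nearer to the mean of both P3 DOX groups in 7 receptors. The 115 were called from the same P1 libraries, and the P0 mean includes the ectopic P0 group, in which receptors were lower. These shares are therefore a description only. Taar genes, the trace amine-associated receptors that some olfactory neurons express in place of an odorant receptor, had none of 7 called at P1 by edgeR, none at an unadjusted p below 0.05 either, and a median of −0.22, which was 0.10 without ectopic replicate 1.

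**Figure D2:**
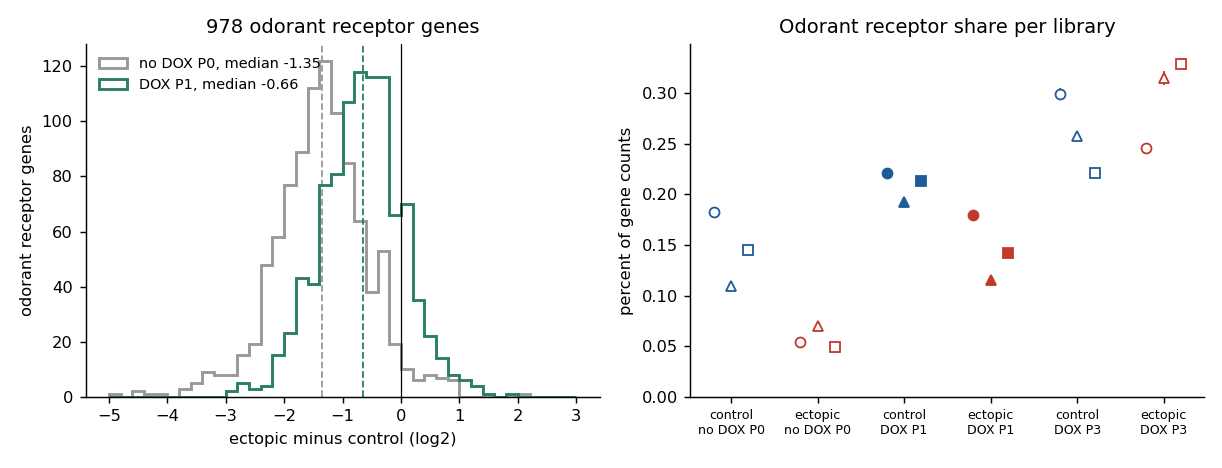
Left, the number of odorant receptor genes by ectopic minus control difference (log2, bins of 0.2) at P0 without DOX (grey) and P1 with DOX (green), dashed lines at the medians of −1.35 and −0.66. Right, odorant receptor genes as a percent of each library's gene counts with 95% Wilson intervals (mostly smaller than the symbols), blue for control and red for ectopic, P1 filled. At P1 the 3 ectopic libraries lie between 0.116% and 0.179%, below the 3 controls.

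Genes that guide receptor choice moved in both directions. Lbr, the lamin B receptor, which is kept low in olfactory neurons so that receptor genes gather in the nucleus, was at 103, 104 and 90.1 CPM in control and 50.5, 63.3 and 59.9 CPM in ectopic libraries (−0.77, adjusted p = 0.000243). Ebf4 (1.01), Bcl11b (0.87) and Ebf3 (0.55), transcription factor genes of the lineage, rose, and 14 of the 18 tested did not pass. Over all genes 14.8% were called. Lmo4, a LIM cofactor that had been 1.21 higher in the ectopic line at P0, was at 89.4, 92.2 and 95.3 CPM in control and 54.2, 77.5 and 80.3 CPM in ectopic libraries at P1. Its P1 difference was −0.38 and did not pass (adjusted p = 0.119), and the change from P0 to P1 did (−1.59, adjusted p = 2.04e-05).

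Over all genes the P1 comparison called 3282 of 22144, 1929 higher and 1353 lower. At P0 the same test called 17 higher (0.0768%) and 150 lower (0.677%). The P0 count came to 60 without ectopic replicate 3, 67 without ectopic replicate 1, 71 without control replicate 1 and 99 without control replicate 3 of P0. Of the P1 calls, 596 were higher and 219 lower by at least 1 on the log2 scale, and the groups did not overlap in 1552 of the higher and 1290 of the lower genes. Ectopic replicate 1 was the highest of the 6 libraries in 1309 of the higher genes and the lowest in 1068 of the lower ones. The median distance of the called higher genes from the control mean was 0.91, 0.74 and 0.48 in ectopic replicates 1, 2 and 3, and of the called lower genes −1.0, −0.52 and −0.47. The number called depended on the libraries, at 1351 without ectopic replicate 1, 1577 without control replicate 1 and 2015 without control replicate 2. A fit on these 6 libraries alone, without the spread shared by all groups, called 730, of which 430 were higher. On log2(TPM + 1) limma called 2784, of which 2691 were higher, as the median of all genes moved from 0.01 to 0.22, so directions on that scale are relative to 0.22.

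**Figure D3:**
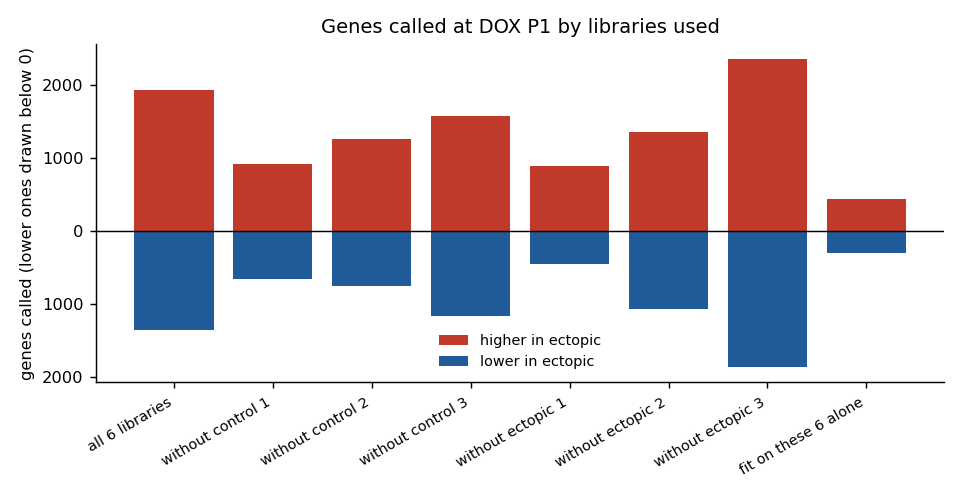
Genes called higher (red, above 0) and lower (blue, below 0) in the ectopic line at DOX P1 with all 6 libraries, without each in turn, and with the fit restricted to these 6. Counts run from 730 in the restricted fit to 4215 without ectopic replicate 3, against 3282 with all libraries.

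Genes of the cell cycle fell together. Of 20 tested, 16 were lower and none higher, where 6.11% of all genes were called lower and 8.71% higher. All 20 were fitted below 0, and the median was −0.64, beside 0.01 over all genes. Cdk1, the kinase that drives entry into mitosis, was at 79.3, 79.2 and 71.7 CPM in control and 26.4, 37.4 and 36.6 CPM in ectopic libraries (−1.18, SE 0.16, adjusted p = 6.27e-07). Ccnb2, a mitotic cyclin, was at 28.8, 39.1 and 29.6 CPM against 10.5, 16.2 and 16.2 CPM (−1.15, adjusted p = 4.28e-06). Neither gene's groups overlapped, and ectopic replicate 1 was lowest in both. Ccnb1 (−1.0) and Aurkb (−0.94) followed, and the proliferation marker Mki67 was lower by 0.67. The list medians were −1.27, −0.38 and −0.53 in ectopic replicates 1, 2 and 3, and without replicate 1 there were 6 of 20 lower (median −0.45). A fit on these 6 libraries alone also gave 6, and on log2(TPM + 1) 1 was lower (median −0.33). At P0 the list median was −0.03, and 6 passed the test of the difference between P1 and P0, all towards a lower level. The ectopic P1 mean was farther than the control P1 mean from the P0 groups in all 16 called genes, with medians of −0.70 and 0.06 from the P0 mean. It was nearer than the control P1 mean to the P3 DOX groups in 13 of the 16, with medians of −0.27 in the ectopic line and 0.56 in control from the P3 mean.

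To show 2 motifs known from promoters of cell cycle genes, the 250 bases before the start of Cdk1 and Ccnb2 are printed 5′ to 3′ on the gene's strand, from RefSeq (GRCm38.p6), with the motifs in capitals. These are the cell cycle genes homology region searched as TTTGAA and the CCAAT box, each on both strands (ATTGG is CCAAT on the other strand). CCAAT stood in 15 of the 18 cell cycle promoters in the table (83.3%), beside 34.5% of all 27025 promoters of that length. TTTGAA stood in 6 of the 18 (33.3%), beside 16.3% of all. A match describes these letters and was not tested as a binding site.
Cdk1, chr10:69352913-69353162, minus strand: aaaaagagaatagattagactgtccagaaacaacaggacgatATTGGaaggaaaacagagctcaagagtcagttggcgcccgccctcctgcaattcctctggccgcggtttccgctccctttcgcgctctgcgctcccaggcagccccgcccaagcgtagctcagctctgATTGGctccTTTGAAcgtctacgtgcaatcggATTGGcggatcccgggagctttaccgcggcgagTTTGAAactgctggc
Ccnb2, chr9:70421555-70421804, minus strand: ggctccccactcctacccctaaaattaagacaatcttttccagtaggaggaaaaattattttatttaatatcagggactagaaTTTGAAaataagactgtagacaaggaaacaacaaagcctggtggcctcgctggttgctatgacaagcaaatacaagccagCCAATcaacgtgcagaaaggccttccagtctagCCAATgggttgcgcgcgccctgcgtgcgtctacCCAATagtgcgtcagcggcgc

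Cdk1 thus held 2 TTTGAA and 3 CCAAT matches, and Ccnb2 1 and 3. CCAAT also stood in 10 of 14 promoters of circadian clock genes (71.4%). Nfya, which encodes the regulatory subunit of NF-Y, the factor known to bind CCAAT boxes, had the smallest p of the P1 comparison. Its values come below, and a link between Nfya and the fall of cell cycle genes was not tested.

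Replication-linked histone genes fell as well. Of 59 tested, 35 were lower and 1 higher, with a median of −0.79, where 6.11% of all genes were called lower and 8.71% higher. Hist1h1e, a linker histone gene, was at 528, 557 and 518 CPM in control and 167, 285 and 263 CPM in ectopic libraries (−1.16, adjusted p = 0.000329). Hist1h2bf was at 34.4, 43.1 and 33.4 CPM against 5.78, 15.7 and 15.1 CPM (−1.54, adjusted p = 0.000118). In both, the groups were well apart and ectopic replicate 1 was lowest. Without that library 6 of 59 were lower (median −0.58), on log2(TPM + 1) 2 were (median −0.44), and the medians in ectopic replicates 1 to 3 were −1.59, −0.53 and −0.59. Family members are close copies, so their single values are uncertain. The 1 histone gene that rose, Hist1h2al, is described with the largest rises.

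Short, abundant RNAs of translation and energy metabolism were low mainly in ectopic replicate 1. Of 83 cytosolic ribosomal protein genes 18 were lower and 1 higher (median −0.50), where 6.11% of all genes were called lower and 8.71% higher. The list medians were −1.26, −0.31 and −0.14 in ectopic replicates 1, 2 and 3. Without replicate 1, 1 was lower and 1 higher (median −0.22). The number lower also moved with the method, to 51 with DESeq2, 46 with its size factors in edgeR, 45 with the percent of reads outside genes as a covariate, 4 with no filter and 1 in the fit on these 6 libraries. Of 7 tested mitochondrially encoded genes 2 were lower, mt-Nd1 (−0.72) and mt-Cytb (−0.57), and none passed without that library. A list of RNAs known to be kept in the nucleus, chosen after the data were seen, went the other way in the same order of libraries (0.96, 0.62 and 0.19). Its best-known member Malat1 was at 8970, 9790 and 9990 CPM in control and 15400, 11500 and 9580 CPM in ectopic libraries and did not pass (0.34, adjusted p = 0.305). Among annotation classes, 198 of 1609 TEC entries (transcribed regions without an established gene model) were higher (12.3%) and 2 lower (0.124%), while protein-coding genes were 8.74% higher and 7.66% lower.

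Rps3a1, which encodes a small-subunit ribosomal protein, was the exception that did not rest on 1 library. It was at 350, 341 and 323 CPM in control and 112, 52.6 and 62.1 CPM in ectopic libraries (−2.18, SE 0.31, adjusted p = 1.68e-06). Its processed copy Rps3a3 was at 0.521, 0.407 and 1.19 CPM in control and 1.0, 109 and 107 CPM in ectopic libraries, and had the largest fitted rise of the comparison. Rps3a3 overlapped the controls in ectopic replicate 1. Reads can be shared between the 2 copies, and their sum was 350, 341 and 324 CPM in control and 113, 161 and 170 CPM in ectopic libraries. Across the series Rps3a3 lay below 10 CPM in 41 libraries and at 10 CPM or above in 31. At P0 it was at 66.3, 57.7 and 1.83 CPM in the ectopic libraries and at most 1.39 CPM in control.

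Circadian clock genes formed a group that did not follow ectopic replicate 1. Of 15 tested, 7 were lower (Ciart, Nr1d2, Tef, Cry1, Dbp, Per3 and Nr1d1), where 6.11% of all genes were called lower and 8.71% higher. Npas2, a partner of the activator, was higher (0.62), and the list median was −0.62. The medians in ectopic replicates 1, 2 and 3 were −0.34, −0.44 and −0.93, and without replicate 1 there were still 7 lower (median −0.69). Ciart, a repressor of the clock, was at 7.99, 7.94 and 9.06 CPM in control and 1.51, 1.51 and 1.97 CPM in ectopic libraries (−2.30, SE 0.41, adjusted p = 9.38e-05). Nr1d2, the nuclear receptor REV-ERB beta, was at 98.8, 109 and 92.2 CPM against 57.5, 57.2 and 49.4 CPM (−0.87, adjusted p = 0.000495). In CPM both genes had values that were tight within groups and apart between them. In TPM Ciart was still apart (3.88, 3.69 and 4.14 against 1.29, 0.94 and 0.91). Nr1d2 overlapped there, at 20.71, 22.51 and 21.99 in control and 21.4, 15.13 and 11.34 in ectopic libraries. Tef (−0.80) and Dbp (−0.72), factors of the output arm, and the repressor Cry1 (−0.64) were also lower, while Arntl (0.14), Clock (−0.10) and Per2 (−0.08) had overlapping values. On log2(TPM + 1) 1 of the 15 was lower and 1 higher (median −0.21).

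For these genes it was mostly the control at P1 that departed from the P0 level. Ciart was at 1.55 to 2.26 CPM in control and 1.9 to 3.0 CPM in the ectopic line at P0. Over the other 23 groups of the series its mean ran from 1.29 to 4.66 CPM, below the 8.33 CPM of control at P1. Single libraries of those groups reached 7.9 CPM, close to the lowest control at P1 (7.94 CPM). In 6 of the 7 lower clock genes the ectopic P1 mean was nearer to the P0 mean, and in all 7 nearer to the P3 DOX mean. At P0 the list median was 0.02, and 3 passed the test of the difference between P1 and P0. The hour of collection is not in the labels, so a difference in it cannot be told apart from genotype.

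The 250 bases before 3 of these genes show the E-box of the clock activators, searched as CACGTG (the same letters on both strands), in capitals. It stood in 5 of 14 circadian promoters in the table (35.7%) and in 6.05% of all promoters, and Ciart held 3 copies. Of the 7 clock genes called lower, 3 held it (42.9%), and these 3 are the ones printed.
Ciart, chr3:95882229-95882478, minus strand: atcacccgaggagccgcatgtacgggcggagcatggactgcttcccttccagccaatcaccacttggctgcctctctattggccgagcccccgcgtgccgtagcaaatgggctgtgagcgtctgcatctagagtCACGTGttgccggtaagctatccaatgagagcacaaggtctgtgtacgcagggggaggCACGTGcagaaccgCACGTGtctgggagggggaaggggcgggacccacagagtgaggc
Cry1, chr10:85185055-85185304, minus strand: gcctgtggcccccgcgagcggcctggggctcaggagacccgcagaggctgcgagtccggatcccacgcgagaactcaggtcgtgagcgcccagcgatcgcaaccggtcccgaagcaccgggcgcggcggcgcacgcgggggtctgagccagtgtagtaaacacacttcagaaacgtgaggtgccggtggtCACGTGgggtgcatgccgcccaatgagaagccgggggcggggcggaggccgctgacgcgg
Tef, chr15:81802423-81802672, plus strand: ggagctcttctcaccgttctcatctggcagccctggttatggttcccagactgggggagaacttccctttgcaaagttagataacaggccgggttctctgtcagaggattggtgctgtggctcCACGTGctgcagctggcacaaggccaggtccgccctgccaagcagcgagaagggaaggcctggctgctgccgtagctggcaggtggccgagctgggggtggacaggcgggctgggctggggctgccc

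Txnip, a thioredoxin inhibitor gene that responds to glucose and glucocorticoids, was at 684, 675 and 596 CPM in control and 250, 323 and 332 CPM in ectopic libraries, again well apart (−1.11, adjusted p = 0.000863). Zbtb16 (−0.96) fell and Angptl4 (1.45) rose among the 12 genes of the glucocorticoid and fasting list, and the other 9 did not pass. Over all genes 6.11% were called lower and 8.71% higher.

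Several of the smallest p-values at P1 belonged to genes that also passed the test of the change from P0. Nfya, the NF-Y subunit, was at 17.7, 14.9 and 12.6 CPM in control and 51.2, 49.9 and 38.7 CPM in ectopic libraries (1.61, SE 0.15, adjusted p = 8.35e-11). Spice1, a centriole gene, was at 14.6, 13.8 and 13.1 CPM against 36.2, 40.9 and 36.3 CPM (1.45, adjusted p = 1.67e-08). In each the ectopic libraries lay close together and far above the controls. Dzip3 (1.22), a ubiquitin ligase gene, Heatr5b (1.0), Armc2 (1.19), a cilium gene, and Zmynd8 (1.5), a chromatin reader, behaved alike, as did Gtf2i (1.31), a general transcription factor gene picked after its values were seen.

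For Nfya and Spice1 the control libraries at P1 were the ones outside the range of the other groups. At P0 Nfya was at 37.4, 40.5 and 44.1 CPM in control and 39.1, 42.1 and 41.4 CPM in the ectopic line, and at P3 with DOX the means were 34.59 and 37.76 CPM. Over the other 23 groups of the series the mean of Nfya ran from 20.9 to 49.6 CPM, and no library fell below 16.7 CPM, while 2 of the 3 controls at P1 did. Spice1 was at 29.2 CPM or more in every library of the other 23 groups. Over all called genes the ectopic P1 mean was nearer than the control P1 mean to the P0 groups in 1122 of 1929 higher genes (58.2%) and in 686 of 1353 lower genes (50.7%). It was nearer to the P3 DOX groups in 60.4% of the higher and 69.8% of the lower genes. Called higher genes had a median of −0.46 in control and 0.28 in the ectopic line relative to the P0 mean. Called lower genes had 0.32 and −0.32. These shares use the same P1 libraries as the calls and are given as a description.

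**Figure D4:**
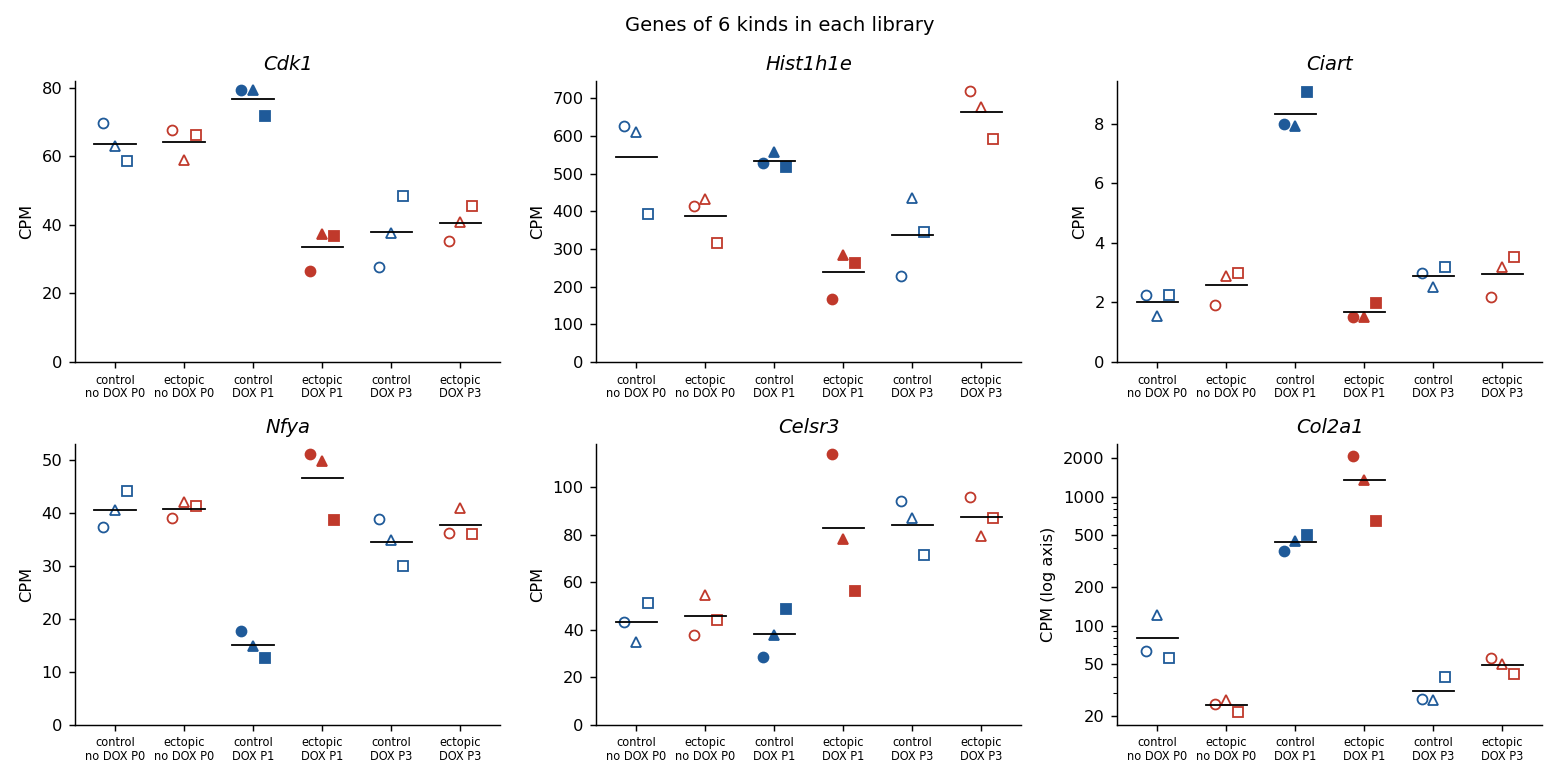
CPM of 6 genes in each library of control (blue) and ectopic (red) groups at P0 without DOX, P1 with DOX (filled) and P3 with DOX, with bars at the means and a log axis for Col2a1 alone. Cdk1 and Hist1h1e are low in the ectopic libraries at P1, Ciart is high and Nfya low in the control libraries at P1, and Celsr3 and Col2a1 spread between ectopic libraries, highest in replicate 1.

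Genes of Wnt signalling were called about as often as genes at large (14.8%). Among 15 receptors and co-receptors other than Fzd1, Lrp5, a co-receptor of the beta-catenin branch, rose (52.8, 50.5 and 55.1 CPM in control, 92.2, 89.1 and 69.5 CPM in ectopic libraries, 0.66, adjusted p = 0.00338). Fzd5, another frizzled receptor, fell (19.6, 16.7 and 18.8 against 9.29, 10.8 and 10.4 CPM, −0.84, adjusted p = 0.000917). Neither pair of groups overlapped, both calls held without ectopic replicate 1, and 13 members did not pass. Of 10 ligands Wnt7b rose (0.85). Of 14 secreted modulators the inhibitors Sfrp1 (−0.57) and Sostdc1 (−0.95) fell, neither past the threshold without ectopic replicate 1. On log2(TPM + 1), relative to the 0.22 of all genes, limma called 3 receptors and 2 modulators higher and none of either lower. Of 13 beta-catenin targets 2 rose, Myc (0.88) and Axin2 (0.42), a feedback inhibitor that is induced by the pathway. Axin2 was at 32.5, 35.2 and 31.5 CPM in control and 53.7, 39.6 and 40.7 CPM in ectopic libraries, and it did not pass without replicate 1 (0.28).

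Of 14 planar cell polarity genes 4 rose and none fell, with a median of 0.38, where 8.71% of all genes were called higher. The fit on these 6 libraries alone called 1 of them higher. Celsr3, a cadherin of the polarity core that olfactory axons use, was at 28.5, 37.6 and 48.6 CPM in control and 114, 78.3 and 56.2 CPM in ectopic libraries (1.11, adjusted p = 0.000236). Dvl3 (1.08), Dvl1 (0.70), which carry the signal of frizzled receptors in the cytoplasm, and Celsr2 (0.83) also rose. Ectopic replicate 1 was highest for Celsr3, Dvl3 and Celsr2, the list medians by library were 0.55, 0.44 and 0.15, and 3 rose without that library. Dvl1, at 32.5, 36.6 and 37.4 CPM against 58.5, 60.3 and 53.7 CPM, was even over the ectopic libraries. At P0 the list median was −0.05, and 3 passed the test of the difference between P1 and P0.

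Axon guidance genes had 4 of 24 higher and 2 lower, where 8.71% of all genes were higher and 6.11% lower. The fit on these 6 libraries alone called 1 higher and none lower. Sema3f, a repellent that orders dorsal and ventral olfactory axons, was at 29.0, 36.6 and 36.9 CPM in control and 95.7, 74.1 and 54.6 CPM in ectopic libraries (1.12, SE 0.16, adjusted p = 3.13e-06). It was above every control in all 3, and was the gene of this list called without ectopic replicate 1. Efna5 (0.88), Dscam (0.69) and L1cam (0.57) rose with replicate 1 included. Kirrel2 and Nphs1 (−1.22) fell.

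Among markers of the neuronal lineage below the mature stage, some progenitor genes rose, while immature neuron genes had 1 call in each direction. Of 13 progenitor genes 3 rose: Ezh2, a histone methyltransferase of dividing precursors, from 36.3, 40.1 and 38.1 CPM in control to 82.6, 71.0 and 63.0 CPM in ectopic libraries (0.92, adjusted p = 6.27e-07), Nhlh1 (1.09) and Insm1 (0.75). The controls at P1 were again below both P0 groups for Ezh2 (61.5 to 79.4 CPM at P0). Of 13 immature neuron genes Dpysl5 rose (1.12) and Stmn4 fell (−0.62). That is near the share over all genes, of which 8.71% were higher and 6.11% lower. Microvillar cell and ionocyte genes had 4 of 10 higher, Foxi1 (0.85), Trpm5 (0.93), Cftr (0.60) and Atp6v1b1 (0.44), of which 2 passed without ectopic replicate 1. Foxi1, the master regulator of ionocytes, was at 14.1, 13.2 and 15.3 CPM against 21.3, 22.6 and 32.0 CPM.

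**Figure D5:**
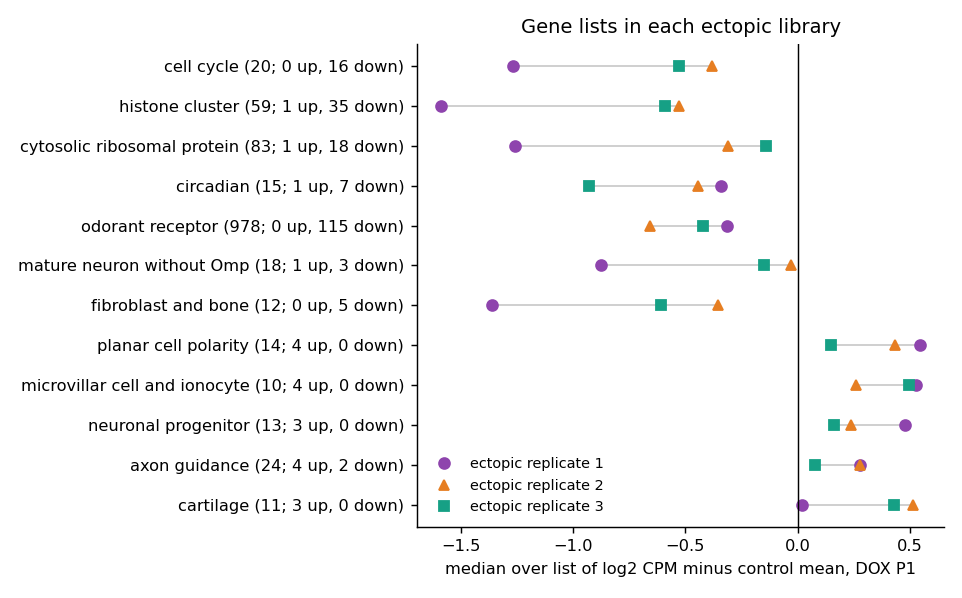
Median over each gene list of the log2 CPM minus the control mean at DOX P1 in ectopic replicates 1 (circle), 2 (triangle) and 3 (square), with the number tested and the numbers called higher (up) and lower (down) beside each name. Cell cycle, histone and ribosomal protein lists are lowest in replicate 1, at −1.27, −1.59 and −1.26, while the circadian list is lowest in replicate 3, at −0.93.

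Markers of neighbouring tissues differed too, where 8.71% of all genes were called higher and 6.11% lower. Cartilage had 3 of 11 higher, 2 without ectopic replicate 1, and none in the fit on these 6 libraries alone. Col2a1, the collagen of cartilage, led, at 376, 452 and 501 CPM in control and 2050, 1340 and 647 CPM in ectopic libraries (1.6, adjusted p = 8.77e-06). Acan (0.72) and Col9a2 (0.62) followed. Col2a1 had been lower in the ectopic line at P0, at 24.6, 26.6 and 21.4 CPM against 63.7, 121 and 55.7 CPM, so both P1 groups lay above every P0 library. Fibroblast and bone genes had 5 of 12 lower, and 1 without ectopic replicate 1. Among the 5 were Lum (221, 210 and 159 against 39.2, 98.7 and 108 CPM, −1.25) and Postn (−0.97). Relative to the P0 mean the 5 had medians of 1.62 in control and 0.33 in the ectopic line, so the P1 controls stood farther from P0. Keratinised epithelium had 2 of 9 higher, Krt1 and Sprr3, with medians of 1.47 and 2.49 in ectopic replicates 1 and 2 and −0.39 in replicate 3. Summed levels were 1925 to 2177 CPM for cartilage in control and 2520 to 3852 CPM in the ectopic line, and 5259 to 7395 CPM and 3172 to 5475 CPM for fibroblast and bone. The part of such tissue in the other results was not tested. No gene was called by edgeR in 9 lists with 82 genes (macrophages, neutrophils, lymphocytes, erythroid, endothelial, skeletal muscle, ciliated and glial cells, and lens), where 4 were higher and 3 lower at an unadjusted p below 0.05. On log2(TPM + 1) limma called 1 glial gene higher and 1 erythroid gene lower.

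Many of the largest fold changes rested on few libraries. After Rps3a3, Hist1h2al (0.694, 0.610 and 0 CPM in control, 0, 25.7 and 33.4 CPM in ectopic libraries) and Rptn, an epidermal gene (24.0 CPM in ectopic replicate 2, at most 2.26 CPM elsewhere), had the largest rises with Catspere1. Among genes with every ectopic library above every control were Kctd21 (0.174, 0.610 and 0.715 against 2.01, 3.76 and 5.14 CPM, 2.93), Adam4 (2.59), Selenbp2 (2.35) and Catspere2 (2.95, 2.44 and 2.62 against 5.78, 13.4 and 17.2 CPM, 2.21). Catspere1, Capn11, Sprr3, Myrfl, Pip and Asprv1 were so too. Krt1 and Dnase1 overlapped the controls, and Dnase1 stood at 67.7 CPM in ectopic replicate 3 and at 7.78 and 14.8 CPM in the others. Kctd21 was again lowest in the P1 controls, with 5.38 to 6.03 CPM in control at P0.

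Several of the largest falls were set by single control libraries. Alb and Afp, liver genes, were at 25.7 and 12.9 CPM in control replicate 3 and at most 0.868 CPM elsewhere. Ambn and Amelx, enamel genes, were at 40.9 and 11.4 CPM in control replicate 2 and at most 1.0 CPM elsewhere, and Amelx changed sign without it. Rprl2, an RNase P RNA-like gene, was at 238 CPM in control replicate 3 and at most 5.21 CPM elsewhere. Rprl3 was at 85.8, 103 and 113 CPM in control and 62, 0.376 and 0.302 CPM in ectopic libraries. Dspp, a dentin gene, was at 1.56, 5.70 and 2.38 CPM against at most 0.376 CPM (−3.46), and Ankrd31 had no count in any ectopic library. The remaining large falls were Omp and the receptors Olfr1118, Olfr198, Olfr183, Olfr180, Olfr212 and Olfr441, all 6 receptors at or below 2.95 CPM in every library.

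Asked directly, the ectopic effect differed between P1 with DOX and P0 without it for 771 genes, 584 with a more positive value at P1 (2.64% of genes tested) and 187 with a more negative one (0.844%). Of these 771, 719 were called at P1 as well, and 59 genes were called both at P1 and at P0. At P3 with DOX, where the titles of the 3 ectopic libraries carry 1 shared ID, Nfya, Cdk1 and Ciart differed between genotypes by 0.13, 0.09 and 0.03, and Omp by −0.09.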

How the data were processed

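The authors used bcl2fastq 2.18, STAR 2.6.1c, RSEM (version not given) and the mm10 build, per the submitters' processing notes, which are known here only as names. The authors deposited integer read counts by gene, not normalized, and TPM values, scaled to a fixed total per library. Which annotation release and which strand setting were used is not given in the sources used here, so antisense and overlapping genes are uncertain. Of 54532 gene IDs, 99.93% matched GENCODE M21, which gave positions. Reads outside genes stayed out of library sizes.

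In R 4.3.3, edgeR 4.0.16 kept 22144 genes (filterByExpr), scaled libraries by TMM and fitted its quasi-likelihood test over all 72 libraries, each of the 25 groups having a term. Called means a Benjamini-Hochberg adjusted p below 0.05 over all genes tested, and SE is the standard error. Single values were compared by exact permutation. Simulated counts of the P1 comparison had 21342 genes in the fit and a dispersion of 0.05 for every gene. In them the test called 0%, 27.3% and 93.9% of genes changed by 0.5, 1 and 2 on the log2 scale. It also called 1 unchanged gene. Alternatives were DESeq2 1.42.0, its size factors, other filters, limma 3.58.1 on log2 TPM with pseudocounts of 1 and 0.1, other sets of genes or libraries, and the percent of reads outside genes as a covariate, added after seeing the data.

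Named genes were Fzd1, the 15 largest rises and falls at P1 with average log2 CPM above 0 and an established symbol, up to 4 called members per list, and the 10 smallest p of the change from P0. Other members of the lists, Gtf2i and Malat1 were named after their values were seen. The comparison and the lists were chosen with earlier results of these data known.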

Additional observations from a re-analysis of the deposited data

Results flagged for a closer look

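The ectopic effect differed between DOX P1 and no DOX P0 by a test of the difference itself for 771 genes, 584 higher and 187 lower. The count came to 199 without control replicate 3 of P0, 242 and 342 without control replicates 1 and 2 of P1, 267 and 459 without ectopic replicates 1 and 2 of P1, 1733 without ectopic replicate 3 of P1, and 349 and 473 without ectopic replicates 1 and 2 of P0. DESeq2 size factors gave 756 higher and 395 lower, and limma on log2(TPM + 1) 241 and 7. The 10 genes named from this test differed as follows, on the log2 scale as P1 effect minus P0 effect. Cartilage collagen Col2a1 differed by 3.33 and Col27a1, another collagen gene, by 2.06. Nfya differed by 1.61, Spice1 by 1.6, Dzip3 by 1.42, Zmynd8 by 1.37, Armc2 by 1.27 and Heatr5b by 1.08. The receptor Olfr24 differed by 2.40. Lmo4 differed by −1.59, the 1 negative value of the 10.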

How the results depend on the processing

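Under the alternatives run, no gene called at DOX P1 with all libraries was called in the opposite direction. At DOX P1 the count of 3282 became 1597 with no filter, 730 in a fit on the groups compared alone and 615 on log2(TPM + 0.1). Leaving out 1 library gave 1351 to 4215. For the difference from P0 (771) the count was 1421 with DESeq2, 330 with no filter, 181 on the groups compared alone, 248 and 10 on log2(TPM + 1) and log2(TPM + 0.1), and 299 without the Gm10800 family, and leaving out 1 library gave 199 to 1733. For P0 (167) it was 12 on the groups compared alone and 3 and 8 on the 2 TPM scales, and leaving out 1 library gave 60 to 198. Among the values that changed sign were those of Amelx, DOX P1, without control replicate 2 (2.30, with −7.16 as the lowest value without 1 library), and the sustentacular list without ectopic replicate 2 (−0.015, with 0.176 as the highest). Further list medians did so too, such as vomeronasal V1R receptors without ectopic replicate 2 (0.182) and skeletal muscle without control replicate 2 (0.245). The mature neuron list was above 0 on the 2 TPM scales (0.077 and 0.079), as it was without Omp (0.102 and 0.108), but below the medians of all genes there (0.223 and 0.339). The cause was not tested. Over single genes and alternatives, 374 values lost their call and 1729 kept their side of the threshold. With the covariate added after seeing the data the P1 count was 4148. No paired analysis was possible because the labels give no replicate numbers that link control and ectopic libraries. In simulated counts with few changed genes and the same dispersion for every gene, no difference of 0.5 on the log2 scale was called. This is not the limit for the data themselves, where Axin2 and Atp6v1b1 were called at smaller differences.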

Other observations

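Several lists not described above had single members called at DOX P1, where 14.8% of all genes were called. Muc5b, a gel-forming mucin of nasal glands, was at 250, 238 and 289 CPM in control and 745, 501 and 508 CPM in ectopic libraries (1.17, adjusted p = 0.00843), and did not pass without ectopic replicate 1 (0.96). Among sustentacular genes Cyp1a2 rose by 0.94 and Muc2 by 1.15. Hyou1, a chaperone of the endoplasmic reticulum, rose by 0.67 and was highest in ectopic replicate 3, at 223 CPM. Of heat shock genes Hsph1 rose by 0.58 and Dnajb1 fell by 0.51. Olig1, an oligodendrocyte lineage gene, was at 9.20, 9.36 and 10.5 CPM in control and 18.1, 20.9 and 26.3 CPM in ectopic libraries (1.19, adjusted p = 0.000142). Arc, an immediate early gene, rose by 0.95, the 1 of 18 in its list. Oasl2 rose by 1.0 among 14 interferon response genes. Sex-linked transcripts marked 1 male and 2 female libraries in each group.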
